A study of Homo sapiens with 6 samples.

Results

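Collagens and matrix proteoglycans were described here as 61 genes, out of 27689 gene symbols in the deposited table. They were all 44 genes whose symbol had the form of a collagen chain (COL1A1 and so on), joined by 17 genes named one by one. The 17 were the proteoglycans LUM, DCN, BGN, VCAN, FMOD, HSPG2 and AGRN, the basement membrane linker NID1, the microfibril proteins FBN1 and FBN2, the matricellular proteins SPARC, THBS1, THBS2, TNC and POSTN, and the cross-linking enzymes LOX and LOXL2. The rule used no measured value. RNA was sequenced from Huh7, a human hepatocellular carcinoma cell line. Of the 6 libraries, 3 carried the label NACER_ASO, for knockdown of the lncRNA NACER according to the series text, and 3 carried the label NC. Each library also had a set number, and sets 5, 6 and 2 each held 1 NACER_ASO and 1 NC library. Every library was made from polyadenylated RNA. The labels do not say what a set is or whether its cells came from a separate culture. The p-values below therefore measure the spread between these libraries, which may be technical. In the comparisons between sets, the 2 libraries of a set stand in as its replicates. Those p-values rest on how far these libraries differ once the treatment label is taken out. They do not measure how far repeats of a set would differ. The level of NACER itself was not analysed here.

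Collagens are trimers of chains that are wound into a triple helix in the endoplasmic reticulum, secreted, trimmed and cross-linked. Fibrillar types form the cables of the interstitial matrix, fibril-associated types decorate them, and type IV forms the sheet of basement membranes. Small leucine-rich proteoglycans such as lumican bind the fibrils, while matricellular proteins such as thrombospondin 1 act on cells more than on structure. In liver, most interstitial collagen is made by stellate cells and fibroblasts, and hepatocytes make little of it.

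Levels are FPKM (fragments per kilobase of transcript, corrected for library size), summed over the transcripts of a gene. The libraries had 12738 to 14635 genes at 1 FPKM or more. All 13 hepatocyte and hepatoma markers were at 1 FPKM or more in every set. Their summed FPKM was 9273 with NACER_ASO and 9150 with NC in set 5, 3555 with NACER_ASO and 3459 with NC in set 6, and 5894 with NACER_ASO and 6011 with NC in set 2. Their levels differed between sets: APOA1, an apolipoprotein gene of hepatocytes, had 516 FPKM with NACER_ASO and 479.6 with NC in set 5, 6.78 with NACER_ASO and 5.54 with NC in set 6, and 26.9 with NACER_ASO and 24.5 with NC in set 2. The labels give Huh7 for all 6 libraries and do not say whether the sets came from the same stock of cells, which was not tested.

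Of 12 stellate cell and fibroblast markers, 3 were at 1 FPKM or more in set 5, 4 in set 6 and 4 in set 2. Their sum was 10.2 with NACER_ASO and 11.7 with NC in set 5, 47.5 with NACER_ASO and 38.8 with NC in set 6, and 47.5 with NACER_ASO and 52.5 with NC in set 2, most of it TAGLN and PDGFRA. PDGFRB, a receptor of stellate cells and pericytes, had 0.117 FPKM with NACER_ASO and 0.0788 with NC in set 5, 1.303 with NACER_ASO and 0.823 with NC in set 6, and 2.64 with NACER_ASO and 1.92 with NC in set 2. THY1 did not exceed 0.0274 FPKM and ACTA2 did not exceed 0.684 FPKM in any library. The sums of the hepatocyte, stellate and leukocyte lists moved with the set, and their part in the differences between sets was not tested. In bulk RNA, fewer cells of a type and less RNA per cell cannot be told apart. Endothelial markers summed to at most 4.13 FPKM in any library, and PTPRC, the defining leukocyte marker, did not exceed 0.950 FPKM. The leukocyte list summed to 538 FPKM with NACER_ASO and 516 with NC in set 5, 137 with NACER_ASO and 115 with NC in set 6, and 75.4 with NACER_ASO and 75.9 with NC in set 2. Most of it was LYZ in set 5, and LYZ and CD68 in sets 6 and 2. CD68, a lysosomal marker of macrophages, ran from 37.03 to 66.9 FPKM over all 6 libraries.

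The set 5 libraries stood apart from the other 4, with both labels. Between the 2 libraries of a set, the correlation (Pearson, over log2(FPKM + 1) of the 61 genes) ran from 0.996 to 0.998. Between sets 5 and 2 it was 0.451 to 0.454, and between sets 6 and 5 it was 0.433 to 0.444, against 0.967 to 0.972 between sets 6 and 2. Over all 13576 tested genes the same comparison gave 0.829 to 0.851 between sets 5 and 2, 0.862 to 0.867 between sets 6 and 5 and 0.924 to 0.943 between sets 6 and 2. These correlations are descriptions across genes that share libraries and carry no test.

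The sets differed in which of the 61 genes made up their sum. Their summed FPKM was 756 with NACER_ASO and 746 with NC in set 5, 639.5 with NACER_ASO and 644 with NC in set 6, and 784 with NACER_ASO and 750.2 with NC in set 2. That was 0.147% to 0.190% of all FPKM in a library. COL2A1 alone was 50.2% of the sum with NACER_ASO and 47.8% with NC in set 5. In the other sets the leading gene was LUM, with 28.4% with NACER_ASO and 29.5% with NC in set 6, and 28.6% with NACER_ASO and 26.6% with NC in set 2. At 1 FPKM or more in both libraries there were 24 members in set 5, 26 in set 6 and 34 in set 2, with 17 in every set. Another 23 members stayed under 1 FPKM in every library, and COL25A1 and COL13A1 were listed at 0 in all 6.

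**Figure D1:**
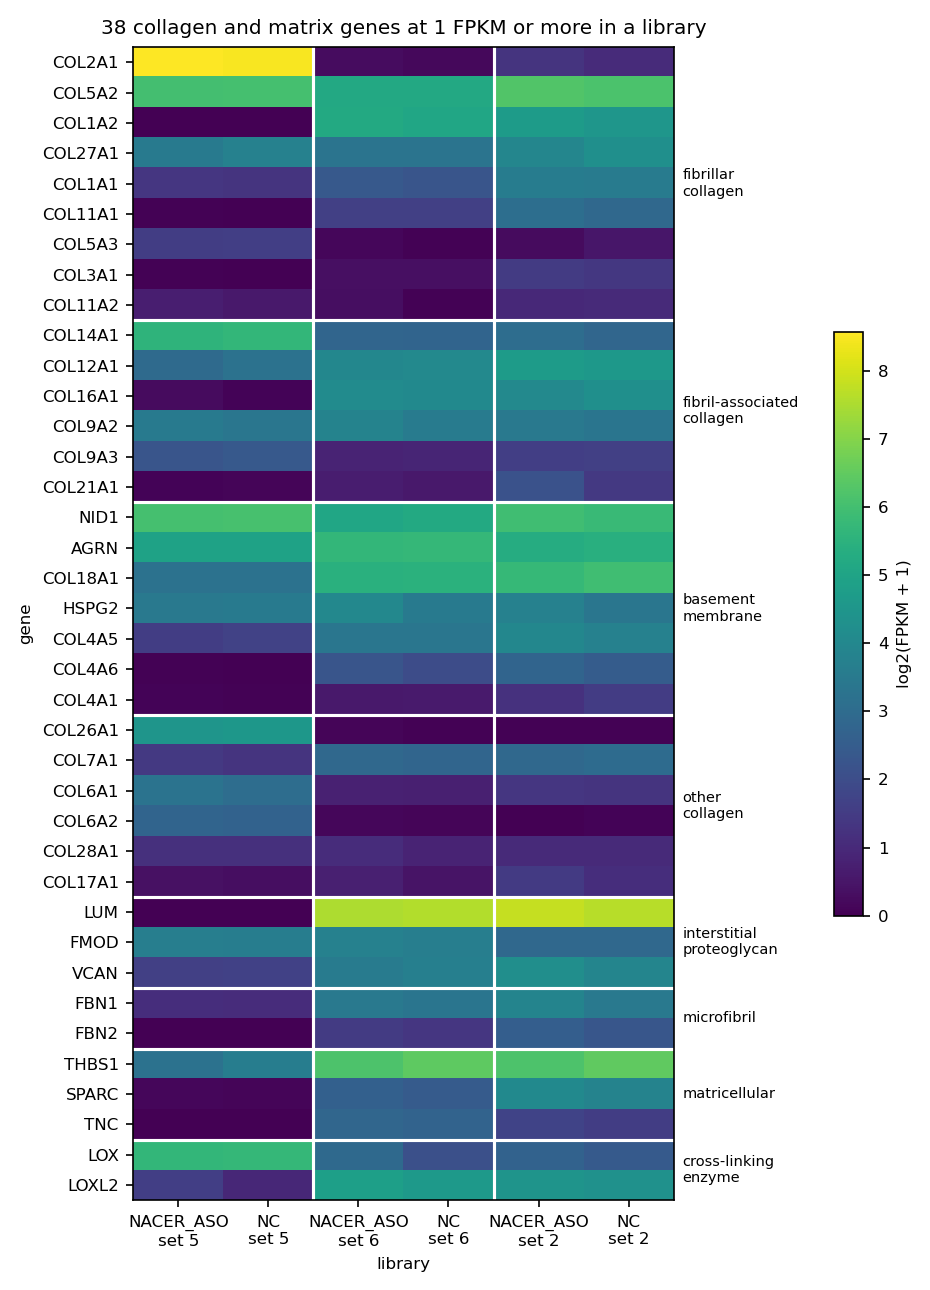
Heat map of log2(FPKM + 1) of the 38 members that reached 1 FPKM in a library, 1 row a gene and 1 column a library, with the columns ordered set 5, 6 and 2 and NACER_ASO left of NC in each. In the set 5 columns COL2A1 has the highest values, 379.6 FPKM with NACER_ASO and 356 with NC, while LUM has the highest in the set 6 and set 2 columns, from 182 to 224 FPKM.

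The comparisons were made with limma on log2(FPKM + 1), each fitted over all genes that reached 1 FPKM in at least 3 libraries, with p-values adjusted over those genes. The first set the NACER_ASO libraries against the NC libraries. The second set the sets against each other with the treatment label as a term, as set 5 minus the mean of sets 6 and 2 and as set 6 minus set 2. Of the 61 members 30 passed the filter and 31 did not. A gene high in sets 6 and 2 alone can pass this filter and a gene high in set 5 alone cannot, so the balance of higher and lower members in set 5 is partly fixed by it. LUM, COL1A2, COL16A1, SPARC, COL11A1, COL4A6, TNC and FBN2 stayed under 1 FPKM in both set 5 libraries and passed through sets 6 and 2 alone, so they had to be lower in set 5. The counts and medians below describe the tested members and are no support for a direction of the group or for the size of its differences. A difference on the log2(FPKM + 1) scale understates the change of genes near 0. Genes named below that are not among the 15 with the highest mean or the most changed members were chosen after their values were seen, mostly as partner chains or neighbours.

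In set 5, 26 of the 30 tested members differed from sets 6 and 2 at an adjusted p under 0.05, against 70.7% of all tested genes. Of these, 8 were higher in set 5, against 24.1% of all genes, and 18 were lower, against 46.6%. The share of members called, 86.7%, was read against that background, and 2 of them, COL5A2 and FMOD, lost their call without a library of set 5. The median size of the difference was 2.17 over the members and 0.49 over all genes, and the median signed difference was -1.58 over the members and -0.22 over all genes. Members that passed the filter through sets 6 and 2 alone, from -1.91 for FBN2 to -7.63 for LUM, enter both medians. Whether the members differ more than other genes was not tested. All 26 called members kept their direction in each of the 13 alternative settings tried, and the 24 other than COL5A2 and FMOD also kept their call. For the members that passed the filter through sets 6 and 2 alone, the direction was fixed beforehand, so its stability is no support. Scaling by median of ratios moved the median of all genes up by 0.15 and quantile normalization by 0.24. Of all genes called, 34.1% were higher in set 5, against 45.1% with median-of-ratios scaling and 51.1% with quantile normalization, while the members called were 8 higher and 18 lower with the first and 9 higher and 18 lower with the second.

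Fibrillar collagens moved in both directions. Of 11 fibrillar genes 6 were tested, and 2 were higher and 3 lower in set 5. COL2A1, the chain of type II collagen, the main fibrillar collagen of cartilage, had 379.6 FPKM with NACER_ASO and 356 with NC in set 5, 0.213 with NACER_ASO and 0.144 with NC in set 6, and 1.45 with NACER_ASO and 1.07 with NC in set 2. Both set 5 libraries lay far above the other 4 libraries, with no overlap, and the difference was 7.82 (SE 0.083, adjusted p = 4.36e-07). Nearly all of this signal was assigned to the transcript of 5087 bases, which was 94.6% with NACER_ASO and 93.8% with NC of COL2A1 in set 5. The shorter transcript of 4880 bases, which lacks an exon that the longer one has, was listed at 20.4 FPKM with NACER_ASO and 21.997 with NC in set 5 and at 0 in the other 4 libraries. Sharing of reads between these overlapping transcripts is an estimate.

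Type I collagen, the most abundant collagen of skin, bone and scar, is a trimer of COL1A1 and COL1A2 chains. COL1A2 had 0.0119 FPKM with NACER_ASO and 0 with NC in set 5, 36.1 with NACER_ASO and 32.99 with NC in set 6, and 24.9 with NACER_ASO and 21.8 with NC in set 2. It was listed at 0 or close to it in both set 5 libraries and above 20 FPKM in all others, a difference of -4.87 (SE 0.084, adjusted p = 1.46e-06). COL1A1 had 1.57 FPKM with NACER_ASO and 1.44 with NC in set 5, 4.24 with NACER_ASO and 3.75 with NC in set 6, and 11.1 with NACER_ASO and 10.7 with NC in set 2. Both set 5 libraries lay below the others, a difference of -1.62 (SE 0.092, adjusted p = 3.79e-05). The COL1A1 to COL1A2 ratio was 0.118 with NACER_ASO and 0.114 with NC in set 6, and 0.443 with NACER_ASO and 0.492 with NC in set 2. COL1A1 therefore had the lower FPKM of the pair in sets 6 and 2 and the higher in set 5.

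COL5A2 and COL11A1 belong to types V and XI, which limit the diameter of fibrils. COL5A2 had 63.2 FPKM with NACER_ASO and 65.7 with NC in set 5, 35.4 with NACER_ASO and 34.9 with NC in set 6, and 75.6 with NACER_ASO and 69.7 with NC in set 2. Set 5 lay between the other sets rather than outside them, so its difference of 0.34 (SE 0.064, adjusted p = 0.0038) is taken against the mean of sets that themselves differed. Without the NC library of set 5 it was 0.28 with an adjusted p of 0.101. Its usual partner chain COL5A1 did not exceed 0.0162 FPKM in any library. COL11A1 had 0.0236 FPKM with NACER_ASO and 0.00559 with NC in set 5, 2.12 with NACER_ASO and 2.0999 with NC in set 6, and 7.58 with NACER_ASO and 6.37 with NC in set 2, and both set 5 libraries lay far below the others, a difference of -2.29 (SE 0.11, adjusted p = 2.19e-05). COL27A1, a fibrillar chain made in cartilage, had 10.2 FPKM with NACER_ASO and 12.7 with NC in set 5, 8.801 with NACER_ASO and 8.77 with NC in set 6, and 14.3 with NACER_ASO and 18.1 with NC in set 2. The set 5 libraries lay within the range of the other 4, and the difference was -0.06 (SE 0.096, adjusted p = 0.587). COL3A1 did not reach 1 FPKM in 4 of the libraries, and was highest in set 2 at 1.78 with NACER_ASO and 1.62 with NC.

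Fibril-associated collagens sit on the surface of fibrils. Of 10 genes 5 were tested, and 2 were higher and 2 lower in set 5. COL14A1, which binds type I fibrils, had 47.1 FPKM with NACER_ASO and 50.6 with NC in set 5, 5.94 with NACER_ASO and 5.75 with NC in set 6, and 7.45 with NACER_ASO and 6.103 with NC in set 2. The set 5 libraries were the highest by a wide margin, and the difference was 2.77 (SE 0.095, adjusted p = 7.69e-06), a 7.74-fold ratio of set means. COL16A1, found at the edge of fibrils, had 0.201 FPKM with NACER_ASO and 0.0696 with NC in set 5, 16.7 with NACER_ASO and 15.9 with NC in set 6, and 15.5 with NACER_ASO and 18.4 with NC in set 2. Set 5 lay below 0.3 FPKM and the other sets above 15, a difference of -3.96 (SE 0.11, adjusted p = 4.44e-06). COL12A1, a partner of type I fibrils, had 6.79 FPKM with NACER_ASO and 8.43 with NC in set 5, 14.8 with NACER_ASO and 15.4 with NC in set 6, and 24.97 with NACER_ASO and 22.8 with NC in set 2, with set 5 below the rest and a difference of -1.22 (SE 0.0999, adjusted p = 1.34e-04). COL9A3, a chain of the type IX collagen that coats cartilage fibrils, had 3.79 FPKM with NACER_ASO and 4.23 with NC in set 5, 0.798 with NACER_ASO and 0.8397 with NC in set 6, and 1.98 with NACER_ASO and 2.05 with NC in set 2, and it was higher in set 5 by 1.10 (SE 0.104, adjusted p = 2.36e-04). Its partner COL9A2 had 10.4 FPKM with NACER_ASO and 9.27 with NC in set 5, 13.2 with NACER_ASO and 10.96 with NC in set 6, and 9.96 with NACER_ASO and 9.04 with NC in set 2, and its difference was -0.11 (SE 0.078, adjusted p = 0.234). The third chain COL9A1 did not exceed 0.0837 FPKM in any library.

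The chains of type VI and of the less common collagens gave 3 tested genes of 15, of which 1 was higher and 1 lower in set 5. COL6A1, a chain of the beaded filaments of type VI, had 8.67 FPKM with NACER_ASO and 7.45 with NC in set 5, 0.712 with NACER_ASO and 0.688 with NC in set 6, and 1.54 with NACER_ASO and 1.46 with NC in set 2. It was higher in set 5 by 2.13 (SE 0.11, adjusted p = 2.32e-05), and the set 5 libraries were 7.34 times the mean of the other sets. COL6A2 lies 93070 bases from COL6A1 on chromosome 21 with no other gene symbol between them in the table. It had 5.85 FPKM with NACER_ASO and 5.49 with NC in set 5, 0.114 with NACER_ASO and 0.0906 with NC in set 6, and 0.0133 with NACER_ASO and 0.0556 with NC in set 2. It reached 1 FPKM in the set 5 libraries only, and did not pass the filter of 3 libraries. COL6A3, the remaining chain of the classic trimer, did not exceed 0.0116 FPKM. COL26A1 had 21.3 FPKM with NACER_ASO and 22.3 with NC in set 5, 0.0958 with NACER_ASO and 0.0396 with NC in set 6, and 0.0446 with NACER_ASO and 0.0419 with NC in set 2. For the same reason it did not pass that filter. COL7A1, the chain of the anchoring fibrils of skin, had 1.68 FPKM with NACER_ASO and 1.45 with NC in set 5, 6.45 with NACER_ASO and 5.904 with NC in set 6, and 6.42 with NACER_ASO and 7.02 with NC in set 2, with set 5 below the rest and a difference of -1.54 (SE 0.103, adjusted p = 6.44e-05). COL28A1, the last tested gene of this group, ran from 0.806 to 1.28 FPKM over the libraries and did not pass the test. COL5A3, a fibrillar chain, was also at 1 FPKM or more in the set 5 libraries only, at 1.96 with NACER_ASO and 2.01 with NC. COL21A1, COL4A1, COL3A1 and COL17A1 reached 1 FPKM in the set 2 libraries only. None of these passed the filter of 3 libraries.

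Among the interstitial proteoglycans, lumican regulates the spacing of collagen fibrils. LUM had 0.0167 FPKM with NACER_ASO and 0 with NC in set 5, 182 with NACER_ASO and 190.3 with NC in set 6, and 224 with NACER_ASO and 199.6 with NC in set 2. Set 5 was at or near 0, a difference of -7.63 (SE 0.072, adjusted p = 3.89e-07). Set 6 lay below set 2 without overlap, a difference of -0.18 (SE 0.084, adjusted p = 0.118). LUM is on hg19 chromosome 12 at 91497232 to 91505542, and DCN, which encodes the related decorin, lies 31512 bases away with no other symbol between them. DCN did not exceed 0.494 FPKM in any library, and BGN, for biglycan, did not exceed 0.117. VCAN, for the large aggregating proteoglycan versican, had 2.09 FPKM with NACER_ASO and 2.13 with NC in set 5, 10.8 with NACER_ASO and 11.8 with NC in set 6, and 17.9 with NACER_ASO and 13.9 with NC in set 2, with set 5 below the rest and a difference of -2.21 (SE 0.12, adjusted p = 3.06e-05). FMOD, for fibromodulin, had 11.7 FPKM with NACER_ASO and 11.5 with NC in set 5, 12.5 with NACER_ASO and 11.7 with NC in set 6, and 6.47 with NACER_ASO and 6.41 with NC in set 2. Set 5 lay close to set 6 and above set 2, and the difference of 0.35 (SE 0.077, adjusted p = 0.00754) lost its call without either set 5 library, with adjusted p of 0.0865 without NACER_ASO and 0.111 without NC.

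Basement membrane genes included several that were well above 1 FPKM in every set. Of 11 genes 6 were tested, with 1 higher and 4 lower in set 5. NID1, for the nidogen that joins laminin to type IV collagen, had 65.2 FPKM with NACER_ASO and 66.4 with NC in set 5, 33.02 with NACER_ASO and 36.2 with NC in set 6, and 60.5 with NACER_ASO and 55.7 with NC in set 2. The set 5 values were the highest but near those of set 2, and the difference was 0.54 (SE 0.072, adjusted p = 9.25e-04). AGRN, for the heparan sulfate proteoglycan agrin, had 29.9 FPKM with NACER_ASO and 29.8 with NC in set 5, 50.2 with NACER_ASO and 51.9 with NC in set 6, and 38.3 with NACER_ASO and 41.2 with NC in set 2, with set 5 the lowest and a difference of -0.58 (SE 0.061, adjusted p = 3.70e-04). COL18A1, the precursor of endostatin, had 8.49 FPKM with NACER_ASO and 8.42 with NC in set 5, 42.5 with NACER_ASO and 43.96 with NC in set 6, and 53.1 with NACER_ASO and 60.4 with NC in set 2, with set 5 below the rest and a difference of -2.42 (SE 0.0704, adjusted p = 4.65e-06). Its transcript of 5427 bases held 77.2% with NACER_ASO and 81.1% with NC of the gene in set 5, against 96.4% with NACER_ASO and 95.5% with NC in set 6 and 92.5% with NACER_ASO and 94.2% with NC in set 2. HSPG2, for perlecan, had 10.1 FPKM with NACER_ASO and 10.2 with NC in set 5, 15.04 with NACER_ASO and 10.4 with NC in set 6, and 12.5 with NACER_ASO and 9.27 with NC in set 2. Set 5 lay within the range of set 2, and the difference was -0.18 (SE 0.12, adjusted p = 0.239).

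Type IV chains form networks in fixed trimers. COL4A5 and COL4A6, which join in one of them, were both lower in set 5. COL4A5 had 1.93 FPKM with NACER_ASO and 2.23 with NC in set 5, 9.21 with NACER_ASO and 9.29 with NC in set 6, and 14.6 with NACER_ASO and 12.6 with NC in set 2, a difference of -1.99 (SE 0.101, adjusted p = 2.62e-05). COL4A6 had 0.0419 FPKM with NACER_ASO and 0.00607 with NC in set 5, 3.77 with NACER_ASO and 2.98 with NC in set 6, and 5.86 with NACER_ASO and 4.65 with NC in set 2, a difference of -2.35 (SE 0.11, adjusted p = 2.08e-05). Both were lowest in the 2 set 5 libraries. The COL4A5 to COL4A6 ratio was 2.44 with NACER_ASO and 3.12 with NC in set 6, and 2.48 with NACER_ASO and 2.72 with NC in set 2. The chains of the more common network, COL4A1 and COL4A2, lie 110 bases apart on chromosome 13. COL4A1 reached 1 FPKM only in set 2, with 1.33 with NACER_ASO and 1.84 with NC, and COL4A2 did not exceed 0.0986 FPKM in any library. COL4A3 and COL4A4 stayed under 1 FPKM in every library.

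COL4A5 and COL4A6 are transcribed in opposite directions from a shared promoter region on the X chromosome, which is why their sequences are shown. The windows below are the 250 bases before each RefSeq start on the GRCh38.p14 build, 5′ to 3′ on the strand of the gene, with each CG dinucleotide in capitals. 1 window was used for each gene, the first that the table lists. COL4A5 (chrX:108439588-108439837, plus strand) has 8 CG and COL4A6 (chrX:108439459-108439708, minus strand) has 7. The windows share 121 bases at 108439588 to 108439708, with 3 CG, and their starts are 380 bases apart. The COL4A6 window belongs to the start of its transcript of 6595 bases, which was given 31.96% of COL4A6 with NACER_ASO and 19.4% with NC in set 6, and 23.9% with NACER_ASO and 30.9% with NC in set 2. The rest was given to transcripts that start further downstream, so the window does not stand before the start of most of the measured COL4A6.
COL4A5: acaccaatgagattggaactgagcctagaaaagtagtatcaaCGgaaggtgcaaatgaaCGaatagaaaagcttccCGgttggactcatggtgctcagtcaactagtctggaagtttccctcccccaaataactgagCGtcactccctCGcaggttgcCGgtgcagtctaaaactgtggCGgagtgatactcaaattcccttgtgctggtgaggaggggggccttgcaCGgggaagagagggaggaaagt
COL4A6: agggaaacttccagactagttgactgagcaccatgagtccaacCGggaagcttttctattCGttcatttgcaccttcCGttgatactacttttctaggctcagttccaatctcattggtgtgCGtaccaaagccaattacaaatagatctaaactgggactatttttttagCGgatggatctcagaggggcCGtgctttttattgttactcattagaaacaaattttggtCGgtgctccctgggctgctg

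The tested microfibril and matricellular genes were FBN1, FBN2, THBS1, SPARC and TNC, and each was lower in set 5. FBN2, SPARC and TNC passed the filter through sets 6 and 2 alone, so only FBN1 and THBS1 could have gone either way. FBN1, for fibrillin 1 of elastic microfibrils, had 1.15 FPKM with NACER_ASO and 1.15 with NC in set 5, 10.1 with NACER_ASO and 9.11 with NC in set 6, and 13.5 with NACER_ASO and 9.93 with NC in set 2, a difference of -2.42 (SE 0.11, adjusted p = 1.95e-05). FBN2 had 0.0148 FPKM with NACER_ASO and 0.00382 with NC in set 5, 1.801 with NACER_ASO and 1.54 with NC in set 6, and 4.95 with NACER_ASO and 3.94 with NC in set 2, a difference of -1.91 (SE 0.12, adjusted p = 4.60e-05). In both genes the set 5 libraries lay below all 4 others. Of the matricellular genes 3 were tested and all 3 were lower. THBS1, which binds and activates latent TGF-beta, had 8.29 FPKM with NACER_ASO and 11.3 with NC in set 5, 72.2 with NACER_ASO and 86.3 with NC in set 6, and 72.2 with NACER_ASO and 87.9 with NC in set 2, and the difference was -2.91 (SE 0.064, adjusted p = 2.18e-06), with the mean of sets 6 and 2 at 8.14 times that of set 5. SPARC, which binds collagen and calcium, had 0.1103 FPKM with NACER_ASO and 0.09697 with NC in set 5, 5.18 with NACER_ASO and 4.499 with NC in set 6, and 15.6 with NACER_ASO and 13.4 with NC in set 2, a difference of -3.10 (SE 0.0998, adjusted p = 6.33e-06). TNC, for the tenascin of wounds and tumour stroma, had 0 FPKM with NACER_ASO and 0 with NC in set 5, 6.18 with NACER_ASO and 5.71 with NC in set 6, and 2.29 with NACER_ASO and 1.92 with NC in set 2. It was listed at 0 in both set 5 libraries, so no fold is given, and its difference on the scale used was -2.21 (SE 0.11, adjusted p = 2.27e-05). POSTN and THBS2 did not exceed 0.452 FPKM in any library.

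The cross-linking enzymes went in opposite directions. LOX, which oxidises lysines of collagen and elastin, had 49.99 FPKM with NACER_ASO and 51.6 with NC in set 5, 6.64 with NACER_ASO and 3.28 with NC in set 6, and 5.45 with NACER_ASO and 4.37 with NC in set 2, a difference of 3.16 (SE 0.18, adjusted p = 3.48e-05) and a 10.3-fold ratio of set means. LOXL2, a relative that acts on type IV collagen, had 2.04 FPKM with NACER_ASO and 0.959 with NC in set 5, 27.8 with NACER_ASO and 23.6 with NC in set 6, and 20.8 with NACER_ASO and 19.3 with NC in set 2, a difference of -3.28 (SE 0.12, adjusted p = 1.05e-05), with the mean of sets 6 and 2 at 15.2 times that of set 5. For each gene the set 5 libraries did not overlap the others.

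**Figure D2:**
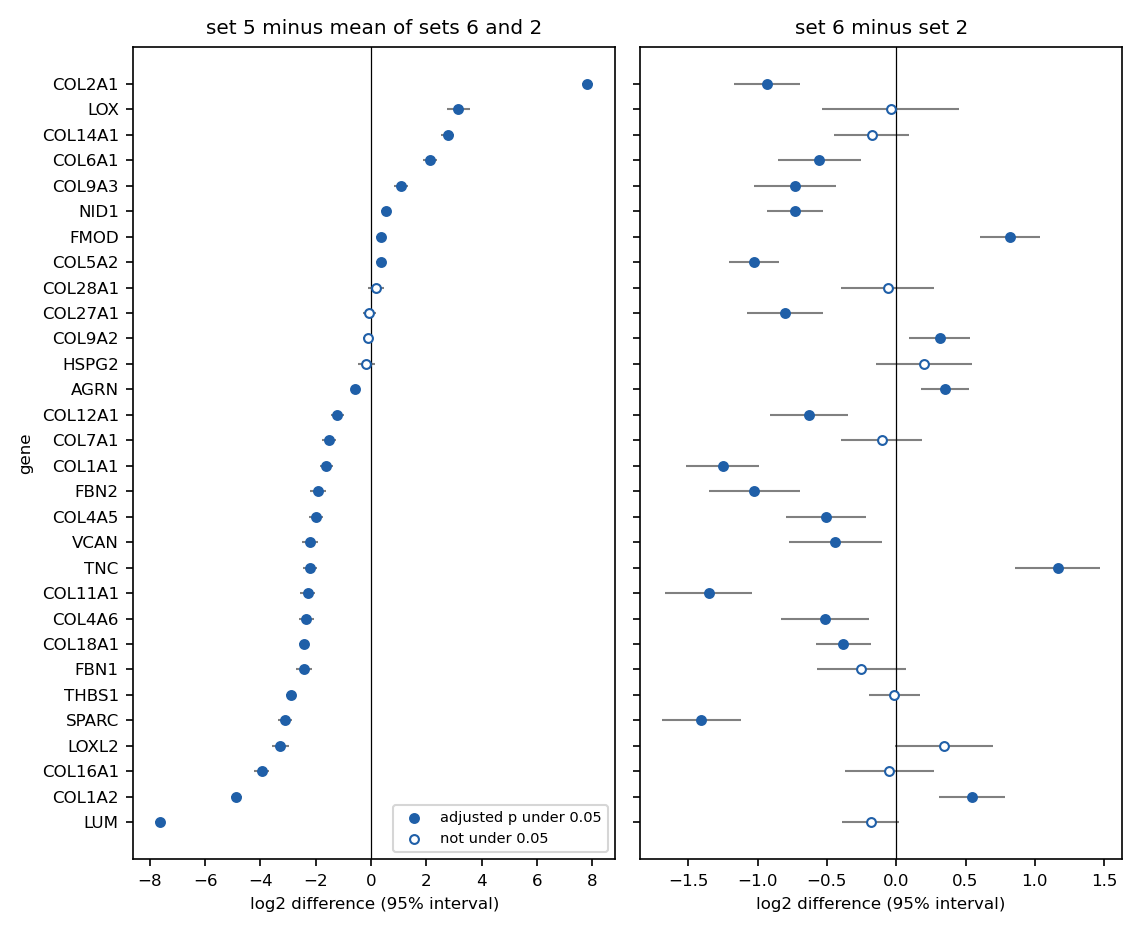
Log2(FPKM + 1) differences of the 30 tested members with 95% confidence intervals, set 5 minus the mean of sets 6 and 2 on the left and set 6 minus set 2 on the right. The left panel spans -7.63 for LUM to 7.82 for COL2A1, and the right panel spans -1.41 for SPARC to 1.16 for TNC.

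The promoter windows of 4 further genes that differed between the sets and have a window in the table are shown so that their base composition can be read beside their levels. LOX and COL26A1 were higher in set 5, and COL16A1 and SPARC lower. COL26A1 (chr7:101362625-101362874, plus strand) has 22 CG, COL16A1 (chr1:31704018-31704267, minus strand) 16, LOX (chr5:122078260-122078509, minus strand) 13 and SPARC (chr5:151686916-151687165, minus strand) 7. Among these 4 the CG counts of the higher and the lower genes interleave. The 4 were picked by hand from the members with a window, and no link between CG count and direction was tested. Windows were found for 45 of the 61 members among 27305 in RefSeq, with a median of 16 CG over the members and 11 over all windows.
LOX: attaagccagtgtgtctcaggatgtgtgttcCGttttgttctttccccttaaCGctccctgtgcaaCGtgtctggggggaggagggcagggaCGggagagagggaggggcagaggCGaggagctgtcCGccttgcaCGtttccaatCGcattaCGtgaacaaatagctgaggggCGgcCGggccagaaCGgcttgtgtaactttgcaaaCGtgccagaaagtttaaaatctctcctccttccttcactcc
COL26A1: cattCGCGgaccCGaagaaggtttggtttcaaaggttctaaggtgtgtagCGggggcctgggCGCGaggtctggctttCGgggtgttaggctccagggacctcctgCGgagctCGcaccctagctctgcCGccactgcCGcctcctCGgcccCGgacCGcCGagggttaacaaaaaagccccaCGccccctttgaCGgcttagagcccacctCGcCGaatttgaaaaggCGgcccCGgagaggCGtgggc
COL16A1: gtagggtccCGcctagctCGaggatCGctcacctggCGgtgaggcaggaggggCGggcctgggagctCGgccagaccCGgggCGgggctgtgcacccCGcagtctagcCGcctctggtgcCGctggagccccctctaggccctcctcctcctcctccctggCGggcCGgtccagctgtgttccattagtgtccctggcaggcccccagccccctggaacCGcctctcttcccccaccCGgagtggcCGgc
SPARC: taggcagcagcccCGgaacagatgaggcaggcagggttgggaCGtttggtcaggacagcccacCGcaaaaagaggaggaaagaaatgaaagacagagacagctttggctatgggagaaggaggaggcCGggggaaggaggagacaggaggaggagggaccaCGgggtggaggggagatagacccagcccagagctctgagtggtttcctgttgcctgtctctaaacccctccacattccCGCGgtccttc

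Promoter motifs were counted on both strands of the same windows. GGGCGG was in 27 of the 45 members (60%), against 42.3% of all windows, CCAAT in 14 (31.1%), against 33.0%, and TATAAA in 8 (17.8%), against 11.1%. On the gene strand and 20 to 40 bases before the start, TATAAA was in 3 of the 45 members, against 2.55% of all windows. These were COL6A2, POSTN and THBS2, and none of them passed the filter of 3 libraries. A match of letters describes the window and does not show a bound factor.

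Sets 6 and 2 also differed from each other, with smaller changes. In set 6, 20 of the 30 tested members differed from set 2, against 48.2% of all genes. Of these, 5 were higher, against 20.9% of all genes, and 15 were lower, against 27.3%. The median size of the difference was 0.51 over the members and 0.32 over all genes. Of all genes called, 43.4% were higher in set 6, against 56.6% with quantile normalization, under which 5 members were higher and 12 lower.

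SPARC led the members that were lower in set 6, with a difference of -1.41 (SE 0.12, adjusted p = 9.62e-04). The difference was -1.35 (SE 0.13, adjusted p = 0.00122) for COL11A1, -1.25 (SE 0.11, adjusted p = 0.00102) for COL1A1 and -1.03 (SE 0.074, adjusted p = 7.70e-04) for COL5A2. COL5A2 values did not overlap between set 6 and set 2, and neither did those of COL1A1 and COL11A1. FBN2 was also lower, with a difference of -1.02 (SE 0.13, adjusted p = 0.00256), and so was COL2A1 at -0.93 (SE 0.096, adjusted p = 0.00145), with COL2A1 at the low levels given above in both sets. Of the 6 tested fibrillar genes 5 were lower in set 6 and 1 was higher.

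COL1A2 was the fibrillar gene that was higher in set 6, by 0.55 (SE 0.097, adjusted p = 0.00642). TNC was higher by 1.16 (SE 0.13, adjusted p = 0.00158) and FMOD by 0.82 (SE 0.089, adjusted p = 0.00161). AGRN was higher by 0.35 (SE 0.071, adjusted p = 0.00973), and it lost its call without either set 6 library, with an adjusted p of 0.0568 without NACER_ASO and 0.0581 without NC. COL9A2 was higher by 0.31 (SE 0.08995, adjusted p = 0.0318), and leaving out any 1 library other than NC of set 2 ended the call, with adjusted p from 0.0704 to 0.227. The difference was -0.44 (SE 0.14, adjusted p = 0.0403) for VCAN, -0.51 (SE 0.12, adjusted p = 0.0156) for COL4A5 and -0.51 (SE 0.13, adjusted p = 0.0204) for COL4A6. It was -0.38 (SE 0.081, adjusted p = 0.012) for COL18A1 and -0.55 (SE 0.12, adjusted p = 0.0132) for COL6A1. These 5 lower members lost their call when some single library was left out. The adjusted p was 0.0502 to 0.235 for VCAN without either set 5 library or either NACER_ASO library of sets 6 and 2. It was 0.0559 to 0.0684 for COL4A5 without either set 6 library or NACER_ASO of set 2, and 0.0546 to 0.0959 for COL4A6 without NC of set 6 or either set 2 library. It was 0.0685 for COL18A1 without NC of set 6 and 0.0649 for COL6A1 without NACER_ASO of set 6. Without NC of set 2, LUM (0.0436), COL14A1 (0.0483) and FBN1 (0.0463) passed the threshold, each lower in set 6.

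**Figure D3:**
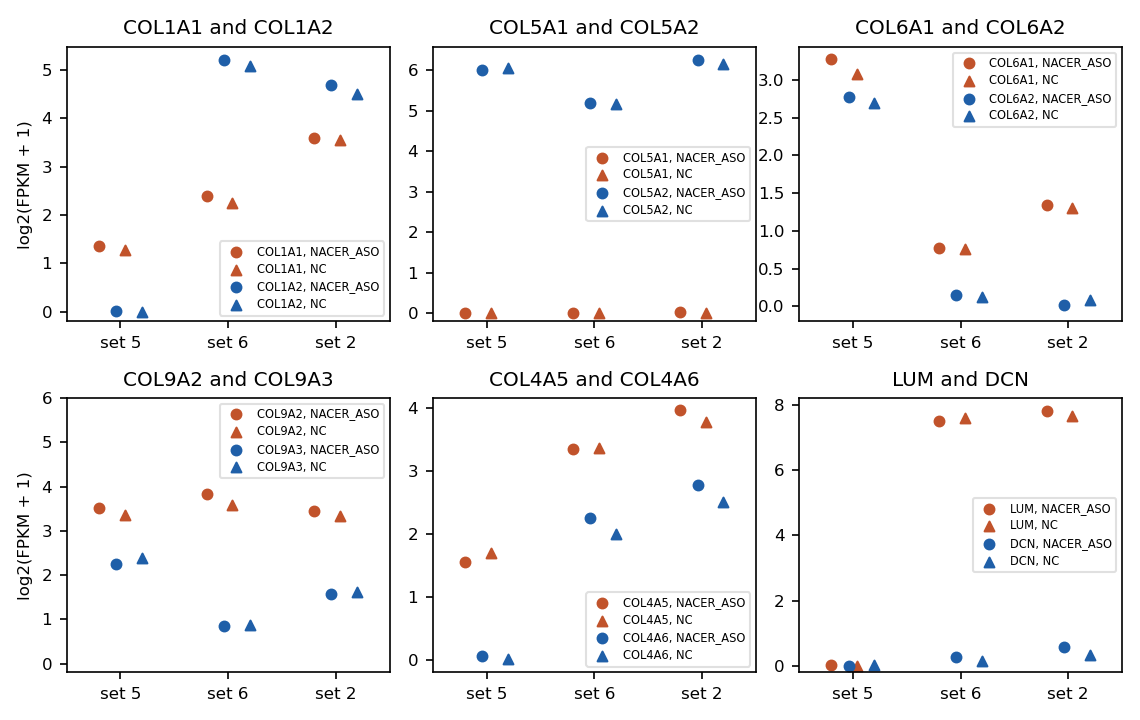
Levels as log2(FPKM + 1) of 6 pairs of partner chains or neighbouring genes, by set, with colours for the genes, circles for NACER_ASO and triangles for NC. COL1A1 lies above COL1A2 in set 5 and below it in sets 6 and 2, and COL5A1 and DCN stay near 0 in every library.

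Genes that process and receive matrix proteins were taken from lists of other genes of the pathway. In set 5 against sets 6 and 2, 4 of 20 tested genes of collagen hydroxylation and folding were higher and 11 lower, with a median difference of -0.25. P3H2, a prolyl 3-hydroxylase, had 1.31 FPKM with NACER_ASO and 1.48 with NC in set 5, 65.9 with NACER_ASO and 63.5 with NC in set 6, and 48.2 with NACER_ASO and 37.4 with NC in set 2, a difference of -4.48 (SE 0.11, adjusted p = 2.48e-06). CRTAP, which acts with P3H1 on collagen chains, was higher in set 5 by 1.55 (SE 0.074, adjusted p = 2.12e-05). Of 18 tested proteinases and inhibitors 4 were higher and 14 lower, with a median of -0.75. Among them TIMP1, MMP11, MMP16, MMP19, RECK and ADAMTS4 stayed under 1 FPKM in both set 5 libraries. They passed the filter through sets 6 and 2 alone, so their lower call was largely fixed by it. TIMP1, an inhibitor of metalloproteinases, had 0 FPKM with NACER_ASO and 0.123 with NC in set 5, 72.99 with NACER_ASO and 53.6 with NC in set 6, and 32.5 with NACER_ASO and 30.9 with NC in set 2, a difference of -5.43 (SE 0.13, adjusted p = 2.53e-06), while the membrane proteinase MMP15 was higher by 2.63 (SE 0.087, adjusted p = 6.76e-06).

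Of 7 tested genes of propeptide cleavage and cross-linking, 2 were higher and 4 lower in set 5, and BMP1, which removes the C-propeptide, was lower, with a difference of -2.29 (SE 0.083, adjusted p = 9.37e-06). Glycosaminoglycan synthesis gave 9 higher and 14 lower of 31 tested, and SULF2, which removes sulfate from heparan sulfate, was higher by 2.62 (SE 0.11, adjusted p = 1.45e-05). Membrane proteoglycans gave 6 higher and 0 lower of 7 tested, with a median of 0.40, led by SDC1, for syndecan 1, at 1.51 (SE 0.077, adjusted p = 2.59e-05). SDC1 was highest in the set 5 libraries, but GPC3 and SDC4, also called higher, were not. GPC3 had 207 FPKM with NACER_ASO and 199 with NC in set 5, below 241 and 219 in set 2. SDC4 had 134 with NACER_ASO and 148 with NC in set 5, which overlapped 136 and 157 in set 6. Of 5 tested receptors outside the integrins, DAG1 was higher and CD44, CD47, DDR2 and DDR1 were lower. For DAG1 and DDR2 the set 5 libraries overlapped those of set 6, and set 2 lay apart. DDR2 had 1.88 FPKM with NACER_ASO and 1.01 with NC in set 5, and 1.76 with NACER_ASO and 0.984 with NC in set 6. In set 2 it had 12.97 with NACER_ASO and 5.98 with NC. The list as drawn up also held UCHL1, a ubiquitin hydrolase that is no receptor, which was not called (adjusted p = 0.0651). CD44, a hyaluronan receptor, had 0.304 FPKM with NACER_ASO and 0.163 with NC in set 5, 40.8 with NACER_ASO and 34.7 with NC in set 6, and 5.42 with NACER_ASO and 4.26 with NC in set 2, and the difference was -3.60 (SE 0.089, adjusted p = 2.86e-06). These counts are set beside 24.1% higher and 46.6% lower of all genes, and no set test was made. The filter fixes part of them. List genes such as TLL1, CSGALNACT1 and CD44 stayed under 1 FPKM in both set 5 libraries and passed through sets 6 and 2 alone.

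Between sets 6 and 2 the same lists gave other counts, beside 20.9% higher and 27.3% lower of all genes. Collagen hydroxylation and folding gave 9 higher and 0 lower of 20, with P4HA2, a prolyl 4-hydroxylase subunit, higher by 1.35 (SE 0.0804, adjusted p = 5.90e-04). Of 5 receptors 4 were higher and 1 lower, leaving out UCHL1, which was called higher by 0.38. CD44 was higher by 2.73 (SE 0.103, adjusted p = 3.36e-04) and the collagen receptor DDR2 was lower, with a difference of -2.08 (SE 0.16, adjusted p = 8.99e-04). Proteinases and inhibitors gave 5 higher and 3 lower of 18, glycosaminoglycan synthesis 10 higher and 7 lower of 31, propeptide cleavage and cross-linking 1 higher and 2 lower of 7, and membrane proteoglycans 1 higher and 4 lower of 7. The hepatocyte markers gave 9 higher and 1 lower of 13 in set 5 against sets 6 and 2, and 0 higher and 10 lower in set 6 against set 2. The stellate and fibroblast markers gave 0 higher and 4 lower of 4 tested in set 5, and 0 higher and 3 lower in set 6. TAGLN and PDGFRA were lowest in the set 5 libraries. RGS5 had 1.56 FPKM with NACER_ASO and 1.80 with NC in set 5, which overlapped 1.61 and 1.63 in set 6, and set 2 lay apart. PDGFRB stayed under 1 FPKM in both set 5 libraries and passed the filter through sets 6 and 2 alone, which fixed its direction. ACTA2, which was not tested, had 0.684 FPKM with NACER_ASO and 0.458 with NC in set 5. In sets 6 and 2 it did not exceed 0.09505 FPKM. All genes were 24.1% higher and 46.6% lower in the set 5 comparison, and 20.9% higher and 27.3% lower in that of set 6.

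No member passed the test between NACER_ASO and NC. In the fit without the set number, 0 of 30 tested members passed an adjusted p of 0.05, against 0% of all genes. That fit keeps the differences between sets in its spread, so it could hardly call a member that differed widely between sets. A block for the set number left the count at 0, also against 0%. At an unadjusted p under 0.05 there were 0 members and 20 of all 13576 genes without the block, and 3 members and 1685 genes with it. The smallest adjusted p of any member was 0.309 with the block.

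The 3 members with the smallest p in the blocked fit were THBS1, LOXL2 and HSPG2. THBS1 averaged 50.9 ± 36.9 FPKM with NACER_ASO and 61.8 ± 43.8 with NC (SD, n = 3 each), and was below its NC library in 3 of 3 sets. Its difference was -0.31 (SE 0.061, adjusted p = 0.309) in the blocked fit, with a 95% confidence interval of -0.46 to -0.16, and the exact permutation test, two-sided over 3 against 3 libraries, gave p = 0.5. LOXL2 averaged 16.9 ± 13.3 FPKM with NACER_ASO and 14.6 ± 12.04 with NC (SD, n = 3 each) and was above its NC library in 3 of 3 sets, with a blocked difference of 0.32 (SE 0.12, adjusted p = 0.367) and an exact permutation p of 0.7. HSPG2 averaged 12.5 ± 2.49 FPKM with NACER_ASO and 9.96 ± 0.597 with NC (SD, n = 3 each), above in 2 of 3 sets, with a blocked difference of 0.29 (SE 0.12, adjusted p = 0.395) and an exact permutation p of 0.3. The smallest p that 3 against 3 libraries allow in that test is 0.1. It shuffles the libraries without regard to the set number, so the differences between sets enter it, as they enter the SDs. None of the 3 blocked differences passed the correction over all genes. Without the block, leaving out 1 library, which unbalances the sets, gave differences of -1.26 to 0.68 for THBS1 and -0.85 to 1.34 for LOXL2, with both ends from leaving out a library of set 5.

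The median treatment differences were small within every set, while single members ranged more widely. The members' median was 0.01 in set 5, against 0.01 over all genes. It was 0.07 in set 6, against 0.06, and 0.13 in set 2, against 0.05. In set 5 the members ran from -0.40 for THBS1 to 0.64 for LOXL2, in set 6 from -0.25 for THBS1 to 0.84 for LOX, and in set 2 from -0.32 for COL27A1 to 0.41 for FBN1. In all 3 sets 12 of 30 members were higher with NACER_ASO (40%, against 27.2% of all genes) and 2 were lower, THBS1 and COL9A3 (6.67%, against 11.04%). For no member did all 3 NACER_ASO libraries lie outside the range of the NC libraries, against 1.57% of all genes.

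**Figure D4:**
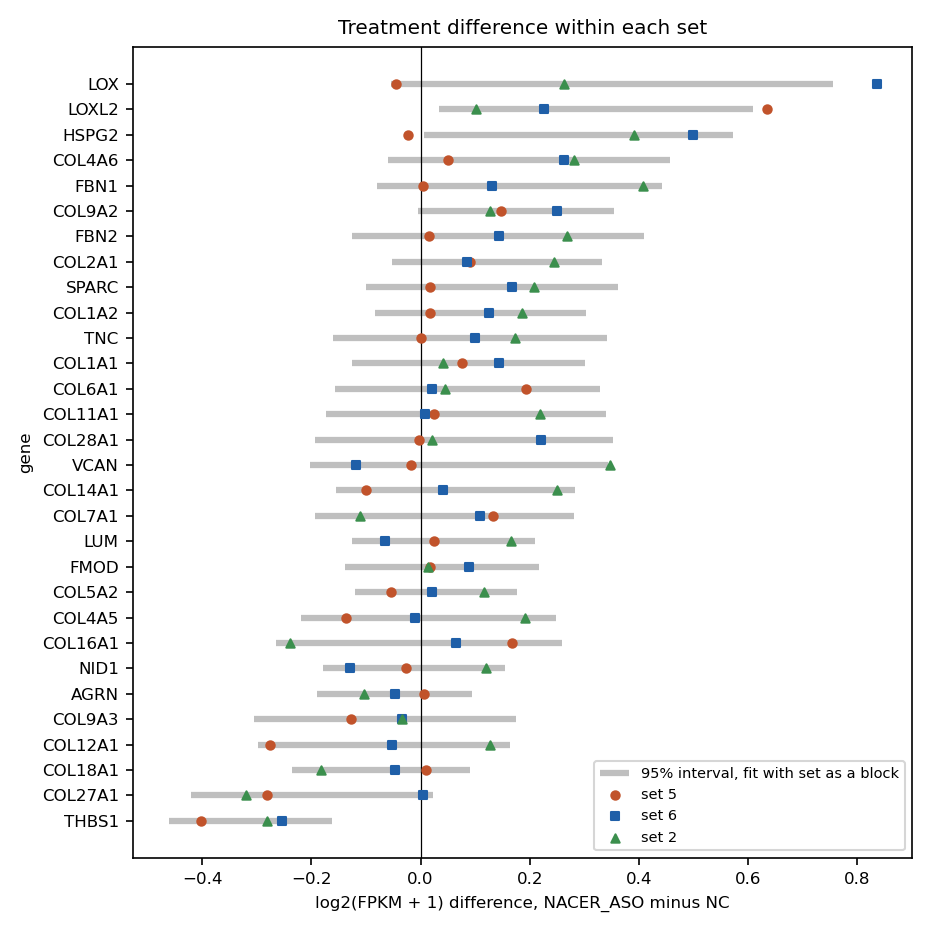
Log2(FPKM + 1) of NACER_ASO minus NC within each set for the 30 tested members, 1 point a set, with a grey bar for the 95% interval of the fit with set as a block. The bar lies off 0 for THBS1, LOXL2 and HSPG2, and no difference passed the adjusted threshold.

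Among the genes with the widest set differences, COL2A1, LUM, COL1A2 and LOX did not pass the test by treatment. COL2A1 had a blocked difference of 0.14 (SE 0.079, adjusted p = 0.504), LUM of 0.04 (SE 0.068, adjusted p = 0.824), COL1A2 of 0.11 (SE 0.079, adjusted p = 0.588) and LOX of 0.35 (SE 0.17, adjusted p = 0.449). The pathway lists gave 0 called genes by treatment with or without the block. Each set held 1 library of each label, and what the sets differ in besides their number cannot be told apart from these files.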

How the data were processed

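Polyadenylated RNA was sequenced from 3 NACER_ASO and 3 NC libraries. The authors deposited FPKM values for 63714 RefSeq transcript rows, with hg19 loci, per the file headers. FastQC 0.11.5, Bowtie2 2.2.6 and StringTie 1.3.3b are named in the submitters' processing notes; no source used here gives their settings or whether strand was used. Such estimates divide reads among isoforms and near-identical copies. No read counts were used, and low values were not whole multiples of 1 read (27.8% to 38.5% within 2%), so depth is rough, 15.6 to 28.3 M fragments. FPKM were summed per gene symbol. limma 3.58.1 (R 4.3.3) with a mean-variance trend was run on log2(FPKM + 1) for 13576 genes at 1 FPKM or more in 3 libraries, with Benjamini-Hochberg adjustment and a threshold of 0.05, and tested on simulated data. Single genes had exact permutation tests that ignored the set number.

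The members and lists were chosen with earlier results of these data known. Genes were named as the 15 with the highest mean and the 6 most changed per direction and set contrast. The 3 with the smallest blocked p by treatment and chains in head-to-head pairs were also named. Other named members were chosen after their values were seen, mostly as partner chains or neighbours. Same-numbered libraries deviated together (correlations 0.966, 0.898 and 0.901), so the set number pairs them. Alternatives were other pseudocounts, filters, scalings, terms and left-out libraries, and a fit on sets 6 and 2 alone, the last chosen after seeing the data.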

Additional observations from a re-analysis of the deposited data

How the results depend on the processing

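By treatment, 0 members were called under every alternative tried, the replicate block included (0 members), and leaving out 1 library gave 0 to 0. Apart from the fits with the block, these alternatives left the set number out, so differences between sets entered their spread. LUM had an SE of 2.85 without the block and 0.068 with it. The counts of 0 without the block therefore say little about a treatment effect. Leaving out 1 library gave 24 to 26 members in set 5 against sets 6 and 2 and 15 to 22 in set 6 against set 2. Set 6 against set 2 gave 12 with a filter of 5 FPKM, which tests 21 members in place of 30. All other alternatives kept each count within 1.5 times. The filter of 2 libraries lets in members through 1 set alone, so its counts are not read as support. Uncalled members changed sign in some settings, and the cause was not tested. In set 5 against sets 6 and 2, COL27A1 was 0.10 with median-of-ratios scaling and 0.13 with quantile normalization, COL9A2 was 0.049 and 0.14, and HSPG2 was 0.060 with quantile normalization. In set 6 against set 2, THBS1 was 0.0049 with median-of-ratios scaling, and with quantile normalization COL14A1 was 0.015, LOX 0.23, COL7A1 0.095 and COL28A1 0.35. Leaving out 1 library gave ranges of -0.14 to 0.015 for COL27A1 and -0.41 to 0.058 for HSPG2 in set 5. For set 6 against set 2 the ranges were -0.057 to 0.030 for THBS1, -0.40 to 0.32 for LOX, -0.23 to 0.13 for COL16A1, -0.22 to 0.011 for COL7A1 and -0.17 to 0.043 for COL28A1. By treatment without the block, where leaving out 1 library unbalances the sets, THBS1 ran from -1.26 to 0.68 and LOXL2 from -0.85 to 1.34. Depth limits values near 0, and 2 residual degrees of freedom before moderation limit the comparisons between sets.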
